A study of Mus musculus with 13 samples.

Results

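The genes described here are neurturin (Nrtn), the receptor tyrosine kinase Ret, the co-receptors Gfra1, Gfra2 and Gfra3, and the cell adhesion gene Ncam1. They were taken by symbol from the deposited expression table, 6 of the 48709 gene rows in the count table, and the rule for taking them uses no measured value, although they were picked with earlier results of these data known. The study asked how a neurturin vector, given before irradiation, bears on gene expression in the irradiated mouse submandibular gland, a major salivary gland that is innervated by parasympathetic neurons. RNA from whole glands was sequenced in 13 libraries of 3 groups. All mice were of the strain given as CH3, were 1 year old, and their glands were taken on day 300.

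The group PreIR-NTN (5 libraries) received Cere-120, an adeno-associated virus vector carrying neurturin (AAV2-NRTN), in the gland 10 days before irradiation. The group PreIR-GFP (5 libraries) received AAV2-GFP, which carries green fluorescent protein, 10 days before irradiation. The group NonIR (3 libraries) was not irradiated, and the sources used here do not say whether a vector was given. Irradiation and vector therefore cannot be told apart in comparisons with NonIR, and both such comparisons share the same 3 NonIR libraries. The promoter of the vectors, the radiation dose and the species of the neurturin insert are not given in the labels either. Nothing in the labels ties the replicates to separate animals, so p-values measure the spread between these libraries, which may be technical.

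Neurturin is a secreted ligand of the GDNF family, whose other members are Gdnf, artemin (Artn) and persephin (Pspn). Each ligand binds a GPI-anchored co-receptor of the GFRα family, and the complex activates the tyrosine kinase RET. Neurturin prefers GFRα2, GDNF prefers GFRα1 and artemin prefers GFRα3, while NCAM1 can serve as an alternative signalling partner of GFRα-bound GDNF. In the developing mouse submandibular gland, neurturin made by the epithelium supports the parasympathetic ganglion. Gdf15 is a distant relative that signals through GFRAL and RET. CERE-120 was developed with the human neurturin sequence, which differs in bases from the mouse gene to which reads were assigned here.

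The mouse Nrtn gene (ENSMUSG00000039481) lies on the minus strand of GRCm38 chromosome 17 from 56751325 to 56757530. The last 150 bases of its coding sequence are at chr17:56751412-56751561 and are shown because they belong to the mouse transcript that defines the Nrtn values below. They were read from the GENCODE mouse release 21 transcript, and the capitals mark the stop codon.
Nrtn: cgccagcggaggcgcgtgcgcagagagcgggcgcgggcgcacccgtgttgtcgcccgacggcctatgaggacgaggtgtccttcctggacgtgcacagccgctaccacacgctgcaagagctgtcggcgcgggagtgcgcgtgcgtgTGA
Whether reads of the vector's insert would be counted under this gene was not tested.

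The other genes lie on GRCm38 as follows, all protein coding. Ret (ENSMUSG00000030110) is on chromosome 6 from 118151745 to 118197718 on the minus strand. Gfra1 (ENSMUSG00000025089) is on chromosome 19 from 58235604 to 58455909 on the minus strand, and Gfra2 (ENSMUSG00000022103) is on chromosome 14 from 70890120 to 70979838 on the plus strand. Gfra3 (ENSMUSG00000024366) is on chromosome 18 from 34689898 to 34720387, and Ncam1 (ENSMUSG00000039542) is on chromosome 9 from 49502136 to 49798925, both on the minus strand. Antisense genes share 416 exon bases with Gfra1 and 417 with Ncam1, and strand is not stated for the counting. Those antisense genes held 0 and 2 reads over all libraries.

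Libraries held 9724301 to 16771003 reads in gene rows. The 20 most abundant genes took between 35.0% of these reads (PreIR-GFP 1) and 60.2% (PreIR-GFP 3). PreIR-GFP 2 stood apart by its skeletal muscle transcripts, with a summed level of 190.8 CPM over 11 muscle markers, against a median of 4.57 CPM in PreIR-GFP and at most 4.22 CPM in PreIR-NTN and 4.08 CPM in NonIR. CPM here means reads per 1000000 after TMM scaling of the library size, and RPM the same without that scaling.

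The count table has rows for the vector sequences tg_AAV2 and tg_EGFP, which could check the labels. Both rows held 0 reads in all 13 libraries, so no test between groups could be made on them. A count of 0 allows up to 3 reads, which over each group is 0.0424 RPM in PreIR-NTN, 0.0415 in PreIR-GFP and 0.0757 in NonIR. Of the 24 rows that are no mouse gene, 3 held any reads, and tg_beta-lac held 15 reads in PreIR-NTN, 11 in PreIR-GFP and 12 in NonIR. The labels were therefore not checked by these rows. Which stretches of the vectors those rows cover was not stated in the labels or headers.

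Levels of different genes were compared per exon length, as RPKM (CPM divided by the exon length in kilobases). Over the 13 libraries Gfra3 had the highest mean level of the family with 7.14 RPKM, followed by Nrtn with 6.33, Ret with 4.22 and Ncam1 with 3.62 RPKM. Gfra2, the preferred co-receptor of neurturin, averaged 0.168 RPKM and Gfra1 averaged 0.0292 RPKM. Between neighbours in this order the ranges over libraries overlapped, except for Ncam1 and Gfra2, where Ncam1 was higher in 13 of 13 libraries. Gfra3 exceeded Nrtn in 8 of 13 libraries, and Nrtn exceeded Ret in 9.

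Among the genes tested, Gfra3 lay above 75.3% by mean RPKM, Nrtn above 72.9%, Ret above 65.1% and Ncam1 above 61.8%. Gfra2 lay above 4.83% of them. Gfra3 took 85.2% to 97.7% of the summed RPKM of Gfra1 to Gfra4, with a median of 94.7% over the libraries. Gfra2 took 0.611% to 5.30% of that sum and Gfra1 at most 2.13%. The transcript of the artemin co-receptor was thus the most abundant of these 4 in every library.

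**Figure D1:**
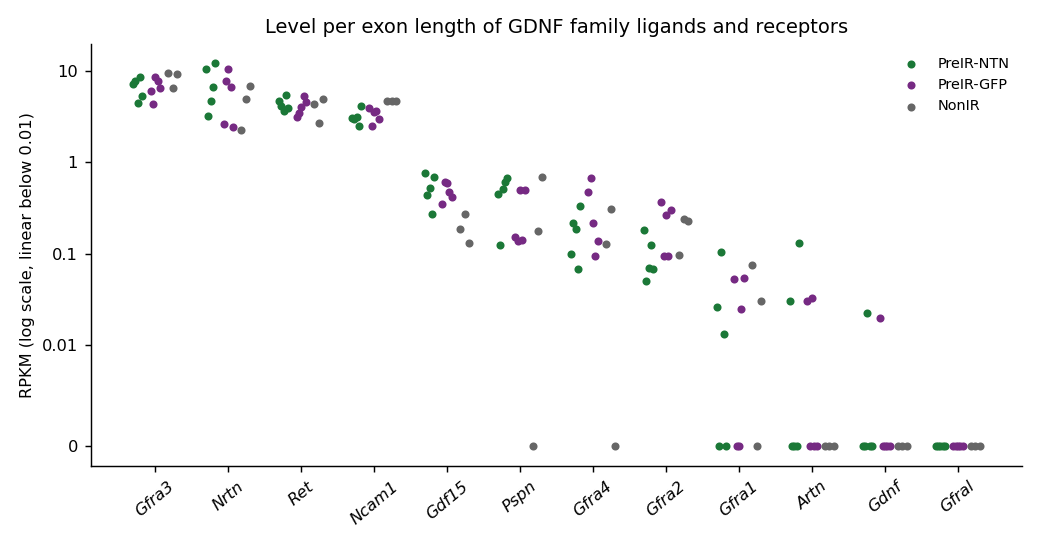
Level per exon length (RPKM, log scale, linear below 0.01) of GDNF family ligands, co-receptors, Ret and Ncam1, 1 point per library. Gfra3, Nrtn, Ret and Ncam1 sit above every point of the other 8 genes, and Gfral was at 0 in all 13 libraries.

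The other ligands were sparse. Gdnf had 2 reads in all, 1 in PreIR-NTN, 1 in PreIR-GFP and 0 in NonIR. Artn, the ligand of GFRα3, had 5 reads in PreIR-NTN, 2 in PreIR-GFP and 0 in NonIR, and 4 of these came from PreIR-NTN 5. Pspn had 15 reads in PreIR-NTN, 10 in PreIR-GFP and 5 in NonIR. Nrtn was therefore the only one of the 4 ligands with more than 4 reads in any library, and it had at least 34 in each. Gfral had 0 reads in all groups, which allows up to 0.0424 RPM in PreIR-NTN, 0.0415 in PreIR-GFP and 0.0757 in NonIR.

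Nrtn had 10.9, 3.28, 4.80, 6.88 and 12.8 CPM in the 5 PreIR-NTN libraries, 2.68, 7.97, 10.9, 6.94 and 2.49 CPM in PreIR-GFP and 2.32, 5.14 and 7.10 CPM in NonIR. Each group spread over at least a 3-fold range and the groups overlapped. The mean was 7.72 ± 4.01 CPM in PreIR-NTN and 6.20 ± 3.61 CPM in PreIR-GFP (SD, 5 libraries each), with 4.86 ± 2.40 CPM in NonIR (SD, 3 libraries). For PreIR-NTN against PreIR-GFP the log2 fold change was 0.32 (SE 0.49, edgeR quasi-likelihood test, adjusted p = 0.991). Its 95% interval ran from −0.75 to 1.38, so an effect between 0.595-fold and 2.60-fold was not resolved. Leaving out 1 library at a time gave 0.06 (without PreIR-NTN 5) to 0.62 (without PreIR-GFP 3).

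Against NonIR, Nrtn stood at 0.67 in PreIR-NTN (95% interval −0.60 to 1.94, edgeR adjusted p = 0.821) and at 0.35 in PreIR-GFP (−0.91 to 1.62, edgeR adjusted p = 0.915) on the log2 scale. Neither passed. Without NonIR 3 these values were 1.05 and 0.73, and without NonIR 1 they were 0.35 and 0.03.

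**Figure D2:**
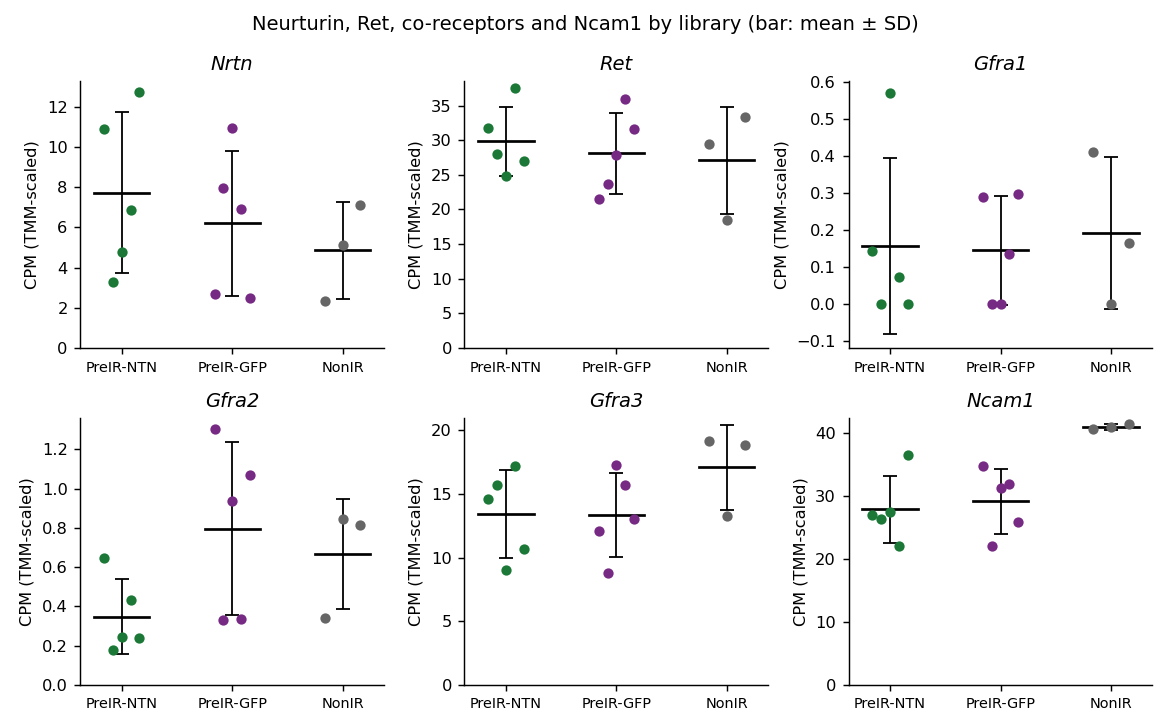
CPM (TMM-scaled) of the 6 genes in PreIR-NTN, PreIR-GFP and NonIR, 1 point per library, with mean and SD as bars. The 3 NonIR libraries lie above all 10 irradiated libraries for Ncam1, and the groups overlap for the other 5 genes.

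Nrtn was set beside acinar transcripts across libraries. Acinar cells are the saliva-secreting cells of the gland, and their markers included the secretory genes Bpifa2, Mucl2, Prol1, Car6 and Dcpp1 and the water channel Aqp5. The summed level of the 12 acinar markers ran from 216346 to 337527 CPM in PreIR-NTN, from 162053 to 459902 CPM in PreIR-GFP and from 250810 to 308605 CPM in NonIR. Nearly all of the sum came from Mucl2, Car6, Prol1 and Bpifa2, with PreIR-NTN medians of 107760, 104977, 42244 and 29945 CPM. The other markers, Aqp5 and Dcpp1 among them, reached at most 400 CPM in any library (Slc12a2 in PreIR-GFP), so the sum mainly reflects those secretory transcripts. The libraries with the lowest sums in each group (PreIR-NTN 2, PreIR-GFP 1 and NonIR 1) had 3.28, 2.68 and 2.32 CPM of Nrtn. The library with the highest Nrtn, PreIR-NTN 5, ranked seventh by the acinar sum with 292753 CPM.

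Over the 13 libraries log2 CPM of Nrtn and of the acinar sum correlated at Pearson's r = 0.80 (permutation p = 0.00036, adjusted 0.0018) and at Spearman's rho = 0.78 (permutation p = 0.00212, adjusted 0.0106). The tests were two-sided with 100000 resamples and adjustment over the 5 genes examined. This relation was looked for after the values were seen. Without the 2 libraries farthest from the median of the sum r was 0.82, and for deviations from group means r was 0.83. The same relation gave r = 0.36 for Ret, 0.20 for Gfra3, −0.16 for Gfra2 and −0.11 for Ncam1, with adjusted permutation p from 0.569 to 0.735. Both quantities carry the same TMM factor of a library, which ran from 0.768 in PreIR-GFP 3, with the highest acinar sum, to 1.42 in PreIR-GFP 1, with the lowest. As RPM, without that factor, r was 0.45 (permutation p = 0.124) and rho was 0.48 (permutation p = 0.0994), and r was 0.28 without the 2 libraries farthest from the median. The relation was therefore not detected without TMM scaling. That check was added after seeing the data. With the acinar sum as a covariate, an alternative chosen after seeing the data, Nrtn in PreIR-NTN against PreIR-GFP stood at 0.41, with an edgeR p of 0.155 before and 0.767 after adjustment.

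**Figure D3:**
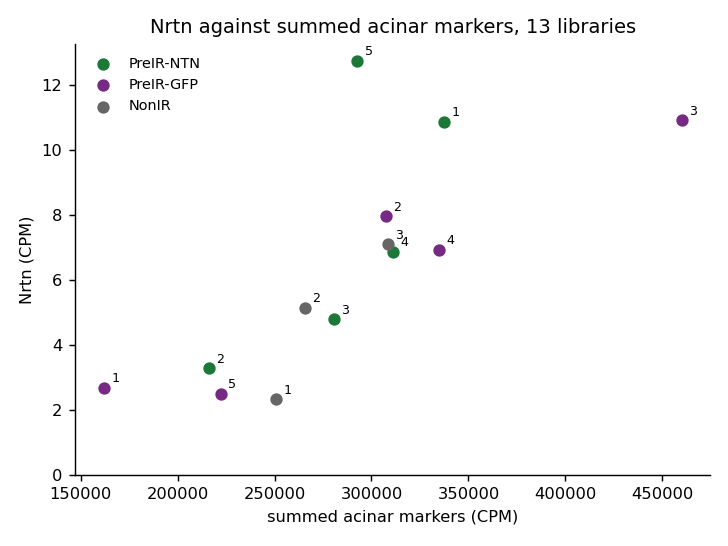
Nrtn (CPM) against the summed level of 12 acinar markers (CPM), 1 point per library, numbered by replicate and coloured by group. The points rise together (r = 0.80) on this scale, where both axes carry the same TMM factor of a library, and as RPM without it r is 0.45.

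The genes most like Nrtn over the 13 libraries, by Pearson's r of log2 CPM among the genes tested, were Ly6k (r = 0.978), Fam3c (r = 0.977) and Hcfc1r1 (r = 0.974). These describe the same libraries on TMM-scaled values, in which both genes carry the library's factor.

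The co-receptor Gfra2 had 0.644, 0.176, 0.244, 0.434 and 0.238 CPM in PreIR-NTN, 1.30, 0.330, 0.937, 0.337 and 1.07 CPM in PreIR-GFP and 0.342, 0.843 and 0.816 CPM in NonIR. All 5 PreIR-NTN libraries lay below the PreIR-GFP median, and the groups overlapped. These levels rest on 3 to 9 reads per library in PreIR-NTN, 5 to 18 in PreIR-GFP and 5 to 10 in NonIR. Group totals were 0.339 RPM in PreIR-NTN (24 reads, exact Poisson 95% interval 0.217 to 0.504), 0.803 in PreIR-GFP (58 reads, 0.610 to 1.04) and 0.631 in NonIR (25 reads, 0.408 to 0.931). These intervals cover counting error only.

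For PreIR-NTN against PreIR-GFP the log2 fold change of Gfra2 was −1.18 (SE 0.49, 95% interval −2.23 to −0.12). Its edgeR p was 0.0308 before and 0.760 after adjustment, so Gfra2 did not pass. Leaving out 1 library at a time gave −1.52 (without PreIR-NTN 1) to −0.91 (without PreIR-GFP 1, edgeR p of 0.0982 before adjustment). The unadjusted edgeR p was also above 0.05 without PreIR-GFP 3 or 5, or without PreIR-NTN 2, 3 or 5. On the deposited normalised values, where a pseudocount of 0.5 shrinks low genes, the difference was −0.56. Gfra2 stood at −0.91 in PreIR-NTN against NonIR (edgeR adjusted p = 0.751) and at 0.27 in PreIR-GFP against NonIR (edgeR adjusted p = 0.936), and the value for PreIR-GFP was −0.05 without NonIR 1.

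Fibroblast markers, read beside Gfra2, were also lower in PreIR-NTN than in PreIR-GFP as groups. By library the order differed, since Gfra2 was 0.330 and 0.337 CPM in PreIR-GFP 2 and 4, below 0.644 CPM in PreIR-NTN 1. A relation over libraries was not computed. The summed level of the 9 fibroblast markers was 153 to 204 CPM in PreIR-NTN, 249 to 395 CPM in PreIR-GFP and 240 to 289 CPM in NonIR, so PreIR-NTN lay below both other groups without overlap. Dcn was the largest part of that sum, with medians of 117 CPM in PreIR-NTN, 191 CPM in PreIR-GFP and 163 CPM in NonIR. The medians of the sum itself were 172, 280 and 262 CPM. Of all single genes tested, 1.11% did not overlap between PreIR-NTN and PreIR-GFP, in either direction. Lower values without overlap in PreIR-NTN against NonIR were found for 3.31%. Of the 9 markers, 9 had a lower mean in PreIR-NTN than in PreIR-GFP, where 47.3% of all genes tested were higher. The matrix gene Dpt was the 1 that passed (log2 fold change −1.33, edgeR adjusted p = 0.0175), in a test that called 0.0204% of all genes. Its call was lost with the 2 groups alone, with the replicate block, and without PreIR-NTN 1, 4 or 5 or PreIR-GFP 1, where 0 genes were called. No marker of the list was at 0 reads in any group. Their part in the Gfra2 difference was not tested. In whole glands, fewer cells of a type and less RNA per cell cannot be told apart.

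Gfra3 had 14.6, 15.7, 9.03, 17.2 and 10.7 CPM in PreIR-NTN, 12.1, 8.77, 17.3, 15.7 and 13.1 CPM in PreIR-GFP and 19.1, 13.2 and 18.9 CPM in NonIR. The irradiated groups had nearly the same range, and 2 of the 3 NonIR libraries lay above every irradiated library. The log2 fold change was 0.01 for PreIR-NTN against PreIR-GFP (95% interval −0.43 to 0.44, edgeR adjusted p = 0.998), which leaves 0.744-fold to 1.36-fold unresolved. It was −0.34 for PreIR-NTN against NonIR (edgeR adjusted p = 0.766) and −0.35 for PreIR-GFP against NonIR (edgeR adjusted p = 0.709). The genes most like Gfra3 over the libraries were Cdc42ep1 (r = 0.943), Nrbf2 (r = 0.921) and Fam98a (r = 0.910).

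Gfra1 did not pass the filter on low counts. It had 2, 0, 7, 1 and 0 reads in PreIR-NTN, 4, 0, 0, 2 and 5 reads in PreIR-GFP and 6, 0 and 2 reads in NonIR. Group totals were 0.141 RPM in PreIR-NTN (exact Poisson 95% interval 0.0677 to 0.260), 0.152 in PreIR-GFP (0.0760 to 0.273) and 0.202 in NonIR (0.0872 to 0.398). Two-sided exact permutation tests of its CPM gave p = 0.952 for PreIR-NTN against PreIR-GFP, 0.857 for PreIR-NTN against NonIR and 0.786 for PreIR-GFP against NonIR. A difference was not detectable at this depth. Gfra4, the persephin co-receptor, had 27 reads in PreIR-NTN, 50 in PreIR-GFP and 12 in NonIR, with exact permutation p of 0.310 for PreIR-NTN against PreIR-GFP.

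Ret, the signalling receptor, had 31.8, 28.1, 24.8, 37.6 and 27.0 CPM in PreIR-NTN, 21.5, 23.7, 27.8, 35.9 and 31.6 CPM in PreIR-GFP and 29.5, 18.5 and 33.4 CPM in NonIR. The 3 groups covered much the same range. Of the 5 genes tested, Ret had among the narrowest intervals: for PreIR-NTN against PreIR-GFP the log2 fold change was 0.09 (95% interval −0.29 to 0.46, edgeR adjusted p = 0.998), a fold of 0.818 to 1.38. Against NonIR it was 0.14 in PreIR-NTN (edgeR adjusted p = 0.901) and 0.05 in PreIR-GFP (edgeR adjusted p = 0.973). Without NonIR 2, the lowest library, these values were −0.07 and −0.16. The genes most like Ret were Smpd1 (r = 0.896), Letm1 (r = 0.865) and Gprc5b (r = 0.858).

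Ncam1 had 26.9, 26.3, 27.3, 21.9 and 36.5 CPM in PreIR-NTN, 34.8, 21.9, 31.2, 31.9 and 25.8 CPM in PreIR-GFP and 40.5, 40.8 and 41.4 CPM in NonIR. All 10 irradiated libraries lay below the lowest NonIR library, and the irradiated groups overlapped each other. Lower values without overlap were found for 3.31% of all genes tested in PreIR-NTN against NonIR, 2.27% in PreIR-GFP against NonIR and 0.903% in both irradiated groups against NonIR. The means were 27.8 ± 5.33 CPM in PreIR-NTN, 29.1 ± 5.15 CPM in PreIR-GFP and 40.9 ± 0.433 CPM in NonIR (SD). The NonIR libraries were closer together than those of either irradiated group.

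Against NonIR the log2 fold change of Ncam1 was −0.56 in PreIR-NTN (SE 0.17, 95% interval −0.91 to −0.20). Its edgeR p there was 0.00425 before and 0.417 after adjustment. In PreIR-GFP it was −0.49 (SE 0.17, 95% interval −0.84 to −0.14), with an edgeR p of 0.00984 before and 0.398 after adjustment. With both irradiated groups together, a contrast added after seeing these values, it was −0.52 (SE 0.15), with an edgeR p of 0.00277 before and 0.288 after adjustment. Ncam1 therefore passed in no comparison. For PreIR-NTN against PreIR-GFP the log2 fold change was −0.07 (95% interval −0.38 to 0.24, edgeR adjusted p = 0.998).

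Several marker lists were read beside Ncam1, which neurons, glia and muscle can express. The summed level of 14 Schwann cell markers was 153 to 168 CPM in PreIR-NTN, 157 to 190 CPM in PreIR-GFP and 126 to 147 CPM in NonIR, higher in the irradiated libraries where Ncam1 was lower. Of that list Foxd3 was at 0 reads in every library. Summed T and NK cell markers, given as values only, were 6.26 to 18.8 CPM in PreIR-NTN, 10.5 to 24.6 CPM in PreIR-GFP and 15.3 to 21.5 CPM in NonIR, and the groups overlapped. PreIR-GFP 2, the library with muscle transcripts, had 21.9 CPM of Ncam1, and without it the log2 fold change in PreIR-GFP against NonIR was −0.40. The part of these cell types in the Ncam1 values was not tested. The genes most like Ncam1 were Epyc (r = 0.846), Sowahb (r = 0.798) and Rdh11 (r = 0.793).

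Of the 6 genes, 5 passed the filter and entered the test over 14727 genes, and 0 passed an adjusted p of 0.05 in any comparison, by edgeR or by the other tools run, except that DESeq2 gave no adjusted p for Gfra2. The test called 0.0204% of all genes in PreIR-NTN against PreIR-GFP, 0.034% in PreIR-GFP against NonIR and 0.0204% in PreIR-NTN against NonIR. With both irradiated groups against NonIR it called 0.109%. At an unadjusted edgeR p under 0.05 there was 1 of the 5 in each comparison, Gfra2 in the first and Ncam1 in the others, beside 6.08%, 8.78%, 7.97% and 8.74% of all genes. The median log2 fold change of the 5 was 0.01 in PreIR-NTN against PreIR-GFP, beside −0.01 over all genes tested, and groups did not overlap for 0 of the 5 there, beside 1.11% of all genes.

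**Figure D4:**
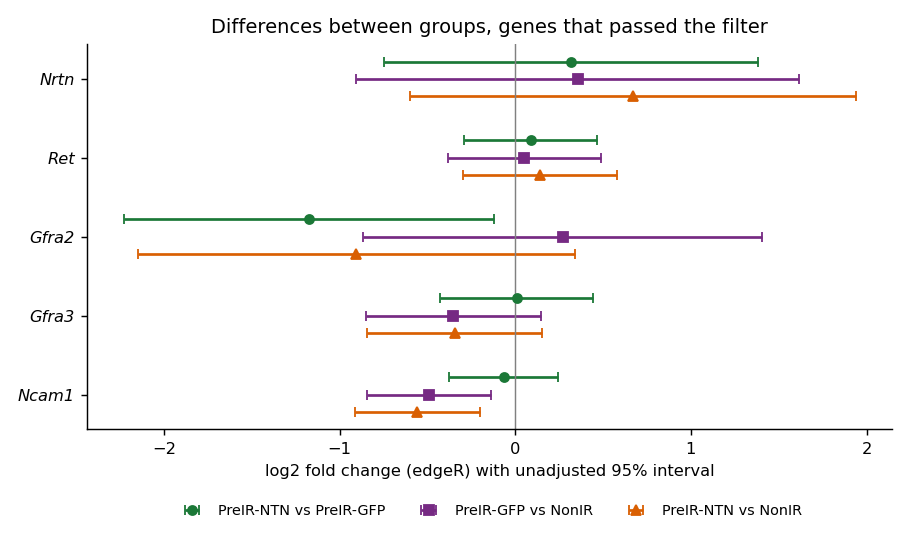
Log2 fold change with its unadjusted 95% interval (edgeR) of the 5 genes that passed the filter, for PreIR-NTN against PreIR-GFP, PreIR-GFP against NonIR and PreIR-NTN against NonIR. The intervals of Ncam1 against NonIR and of Gfra2 in PreIR-NTN against PreIR-GFP lie below 0, and none of the 5 genes passed after adjustment.

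Gdf15, a stress cytokine outside the classical ligands, had 1.43, 0.820, 0.976, 0.507 and 1.27 CPM in PreIR-NTN, 0.652, 1.12, 1.09, 0.876 and 0.772 CPM in PreIR-GFP and 0.342, 0.506 and 0.245 CPM in NonIR. Both irradiated groups lay above NonIR without overlap, on 3 to 20 reads per library. Higher values without overlap were found for 3.22% of all genes tested in PreIR-NTN against NonIR and 2.87% in PreIR-GFP against NonIR. Its log2 fold change against NonIR was 1.44 in PreIR-NTN (edgeR adjusted p = 0.425) and 1.29 in PreIR-GFP (edgeR adjusted p = 0.394), so it did not pass.

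Genes of the pathway beyond ligands and receptors were read from lists. Of 37 adaptors and kinases downstream of RET, 34 were tested and 0 passed in any of the comparisons. In PreIR-NTN against PreIR-GFP their median log2 fold change was −0.04, beside −0.01 over all genes, with 15 higher and 19 lower by mean and 0 at an unadjusted edgeR p under 0.05. The lowest p belonged to the phospholipase Plcg1 (−0.43), the adaptor Shc1 (0.25) and the docking protein Frs2 (−0.31), with edgeR adjusted p of 0.817, 0.867 and 0.867.

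Of 15 genes that respond to RET and ERK signalling, 14 were tested and 0 passed. Their median was −0.15 in PreIR-NTN against PreIR-GFP, with 3 higher and 11 lower by mean and 3 at an unadjusted edgeR p under 0.05, all 3 lower. Over all genes tested, 47.3% were higher, 6.08% had an unadjusted p under 0.05 and the median was −0.01. The immediate early gene Fos averaged 1.14 ± 0.232 CPM in PreIR-NTN and 4.60 ± 4.09 CPM in PreIR-GFP (SD). Its log2 fold change stood at −2.01 (edgeR adjusted p = 0.618). The feedback inhibitors Spry4 and Spred1 stood at −0.93 (edgeR adjusted p = 0.669) and −0.71 (edgeR adjusted p = 0.760). Against NonIR, the ERK target Etv5 stood at 0.75 in PreIR-NTN (edgeR adjusted p = 0.534) and at 0.76 in PreIR-GFP (edgeR adjusted p = 0.466). The list as a whole had 5 higher and 9 lower in PreIR-NTN against NonIR, from −1.10 to 0.75, with a median of −0.10. In PreIR-GFP against NonIR it had 10 higher and 4 lower, with a median of 0.24. Over all genes tested, 50.5% and 52.7% were higher in these comparisons, with medians of 0.003 and 0.02.

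Of 13 modulators of RET and NCAM, 10 were tested and 0 passed, with a median of −0.04 in PreIR-NTN against PreIR-GFP and 0 at an unadjusted edgeR p under 0.05. Members with the lowest p were Lrig3 (−0.39), the polysialyltransferase St8sia4 (−0.63), which modifies NCAM, and the sorting receptor Sort1 (−0.08), with edgeR adjusted p of 0.906, 0.958 and 0.988.

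Transcripts listed as markers of autonomic neurons, cholinergic and noradrenergic ones together, were sparse in these glands. The 27 markers summed to 24.5 to 38.4 CPM in PreIR-NTN, 31.0 to 45.0 CPM in PreIR-GFP and 24.6 to 41.0 CPM in NonIR, and 10 passed the filter. Nos1 made up most of that sum in every library except PreIR-GFP 1. The other 26 markers summed to 3.69 to 11.9 CPM in PreIR-NTN, 3.98 to 31.7 CPM in PreIR-GFP and 4.13 to 13.5 CPM in NonIR. Markers with a mean under 0.1 CPM over all libraries numbered 9, among them the cholinergic genes Chat and Slc18a3 and the noradrenergic genes Th and Dbh. Chat had 4 reads in PreIR-NTN, 2 in PreIR-GFP and 4 in NonIR.

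Nrtn, Ret, Gfra3 and Ncam1 each had a higher mean RPKM than all 27 neuron markers, the highest of which was Nos1 with 2.11 RPKM. Of the tested neuron markers 0 passed in any of the comparisons. In PreIR-NTN against PreIR-GFP, 2 were higher and 8 lower by mean, with a median log2 fold change of −0.86, beside 47.3% higher and −0.01 over all genes tested. At an unadjusted edgeR p under 0.05 there were 2 of the 10, 1 higher and 1 lower, beside 6.08% of all genes. The neuropeptide gene Vip averaged 0.430 ± 0.347 CPM in PreIR-NTN and 1.71 ± 1.82 CPM in PreIR-GFP (SD), with a log2 difference of −1.95 (edgeR adjusted p = 0.755). The transcription factor gene Gata2 stood at 0.96 (edgeR adjusted p = 0.816) and the neuronal cytoskeletal regulator Stmn2 at −0.74 (edgeR adjusted p = 0.816).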

How the data were processed

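The authors deposited raw read counts per gene for 13 libraries and a table of normalised signal, in which every library's counts are multiplied by 1 factor, as a test of the values showed. Per the labels' protocols, cDNA was made with SMART-Seq v4, tagged with Nextera XT and sequenced on a NextSeq instrument. STAR 2.5.2a, the build GRCm38.p3 (mm10), DESeq2, edgeR and limma are named in the submitters' processing notes, without their roles. How reads were counted, and with which strand setting, was not stated. The series text names another instrument and triplicates, and the sample labels were followed.

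Non-gene rows were left out, filterByExpr by group kept 14727 genes, TMM scaled the library sizes, and edgeR 4.0.16 (R 4.3.3) fitted its quasi-likelihood model with group means to all libraries together. P-values were two-sided, adjusted after Benjamini and Hochberg over all genes tested, with 0.05 as the threshold. Standard errors were the fold change over the root of F. Genes under the filter got exact permutation tests. Likeness used log2 CPM with a prior count of 2 and members with at least 10 reads per library on average. Exon lengths came from GENCODE mouse release 21. The procedure was tested on simulated data.

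The members, gene lists and tests were chosen with earlier results of these data known. Named genes were the members, all ligands and receptors of the family, list genes past the threshold or up to 3 with the lowest p in PreIR-NTN against PreIR-GFP, and the 3 genes most like each member. Etv5 and Chat fall outside that rule and were picked with their values in view. PCR copies carry no molecular identifiers here, so intervals and floors of 3 reads cover counting error only. Alternatives were other scalings, filters and tools, the 2 groups alone, a replicate block, an acinar covariate and leaving out each library.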

Additional observations from a re-analysis of the deposited data

Results flagged for a closer look

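Gfra1 in PreIR-NTN 3 was far from the other libraries of its group, with 0.570 CPM (7 reads), against 0 to 0.143 CPM (0 to 2 reads) in the other 4 PreIR-NTN libraries. It was 1 of 12 sets of values checked, 6 genes in each of the groups with 5 libraries, and chance marks about 1 set in 20. No other library of PreIR-NTN or PreIR-GFP stood apart in this way for any of the 6 genes, and NonIR was not checked.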

How the results depend on the processing

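The 5 genes tested had 449 values under alternatives, 445 of them with an adjusted p, since DESeq2 gave none for Gfra2 in the 4 comparisons. Of the 445, 0 were under 0.05 and the lowest was 0.127, for Ncam1 in both irradiated groups against NonIR. The direction of Nrtn was kept under every alternative run, in all comparisons. The direction turned in 15 values of Ret, Gfra2, Gfra3 and Ncam1. With the replicate block Ret was −0.070 in PreIR-GFP against NonIR and −0.019 for both irradiated groups. The correlation of Nrtn with the acinar sum was 0.45 (permutation p = 0.124) without TMM scaling.

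Without 1 library at a time, Ret ran from −0.0078 to 0.19 in PreIR-NTN against PreIR-GFP, −0.16 to 0.23 in PreIR-GFP against NonIR, −0.075 to 0.31 in PreIR-NTN against NonIR and −0.12 to 0.27 for both irradiated groups. In PreIR-NTN against PreIR-GFP, Gfra3 ran from −0.11 to 0.12 and Ncam1 from −0.18 to 0.032. Gfra2 ran from −0.051 to 0.47 in PreIR-GFP against NonIR. Mean CPM differences of Gfra1 ran from −0.0903 to 0.0520 in PreIR-NTN against PreIR-GFP, −0.142 to 0.0626 in PreIR-GFP against NonIR, −0.137 to 0.0754 in PreIR-NTN against NonIR and −0.136 to 0.0690 for both irradiated groups.

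Genes called over the whole table, 3 in PreIR-NTN against PreIR-GFP, numbered 39 by DESeq2, 10 with no filter, 12 with the acinar covariate, 0 with the 2 groups alone (818 unadjusted) and 0 to 11 without 1 library. In PreIR-GFP against NonIR, 5 were called, and 68 by DESeq2, 20 with no filter, 15 with the covariate, 0 by limma-voom (1127 unadjusted), 0 with the 2 groups alone (1007) and 0 to 17 without 1 library. In PreIR-NTN against NonIR, 3 were called, 31 by DESeq2, 1 by limma-voom and 0 to 4 without 1 library. For both irradiated groups, 16 were called, 64 by DESeq2, 2 by limma-voom, 2 on the deposited normalised values and 0 to 37 without 1 library, with 37 without PreIR-GFP 1 and 0 without NonIR 2 or NonIR 3. Settings without 1 library that called 0 had 678 to 1319 genes at an unadjusted p under 0.05. The cause of these shifts was not tested.

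With the replicate block 0 genes were called in each comparison (692, 1084, 878 and 1026 unadjusted, in the order above). No pairing by replicate number was detected: deviations of 11 same-numbered pairs correlated at −0.43 to 0.28, with 3 over 0.1. The 44 different-numbered pairs ran from −0.50 to 0.53, a spread in which a weak pairing could be missed. Gfra1 failed the filter and was not run in fits that need it, and Gfra2 was left out by the stricter filter and by 2 of the fits on the 2 groups alone. Gfra1 and Gfra2 are limited by depth.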

Other observations

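Other neurotrophic factors and their receptors were measured beside the GDNF family. Of 18 such genes 13 were tested and 0 passed in any of the comparisons, with a median log2 fold change of −0.06 in PreIR-NTN against PreIR-GFP, beside −0.01 over all genes, and 2, 1 higher and 1 lower, at an unadjusted edgeR p under 0.05, beside 6.08% of all genes. Igf1 averaged 20.3 ± 7.19 CPM in PreIR-NTN and 40.9 ± 34.6 CPM in PreIR-GFP (SD), with a log2 difference of −1.009 (edgeR adjusted p = 0.804). Pdgfa averaged 80.7 ± 22.1 CPM in PreIR-NTN and 59.8 ± 9.51 CPM in PreIR-GFP (SD), with a log2 difference of 0.43 (edgeR adjusted p = 0.804). Lifr, a receptor subunit for cytokines of the leukaemia inhibitory factor family, averaged 849 ± 76.5 CPM in PreIR-NTN and 980 ± 96.5 CPM in PreIR-GFP (SD), with a log2 difference of −0.21 (edgeR adjusted p = 0.832).

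Other cell type markers, given as values, were as follows. Summed granular tubule and duct markers were 8267 to 13474 CPM in PreIR-NTN, 6120 to 15640 CPM in PreIR-GFP and 8613 to 13058 CPM in NonIR. Basal and myoepithelial markers were 494 to 819 CPM in PreIR-NTN, 585 to 685 CPM in PreIR-GFP and 656 to 733 CPM in NonIR. Endothelial markers were 30.6 to 42.2 CPM in PreIR-NTN, 31.5 to 46.9 CPM in PreIR-GFP and 40.5 to 45.1 CPM in NonIR. Sublingual mucous markers, a sign of the neighbouring gland, were 0.814 to 18.1 CPM in PreIR-NTN, 0.923 to 8.75 CPM in PreIR-GFP and 2.05 to 2.53 CPM in NonIR.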
